A study of Mus musculus with 6 samples.

Results

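The proteasome subunit genes are the protein-coding mouse genes whose symbol starts with Psma, Psmb, Psmc or Psmd followed by a digit. The rule found 40 of the 21900 protein-coding genes of the RefSeq table used here. They were followed through 6 peak lists from chromatin immunoprecipitation sequencing (ChIP-seq) of mouse retina, in which an antibody raised in rabbit pulled down the clock transcription factor BMAL1. The labels call 3 libraries wild type (Control 1 to 3) and 3 Bmal1 conditional knockout (Bmal1 CKO 1 to 3), all of strain C57BL/6, with no external treatment and with pups weaned at postnatal day 20. The labels give neither the driver that deletes the gene, nor the retinal cells affected, nor the age or time of day at which retinas were taken. Whole retina mixes many cell types, and a peak list cannot tell a site bound in a few of them from a site bound weakly in all.

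The proteasome is the protease that degrades proteins tagged with ubiquitin. Its barrel-shaped core has outer rings of alpha subunits (Psma genes), which gate the entry, and inner rings of beta subunits (Psmb genes), of which Psmb5, Psmb6 and Psmb7 encode the catalytic ones. The regulatory particle on top of the barrel unfolds the substrates with a ring of ATPases (Psmc genes) and binds and deubiquitinates them with non-ATPase subunits (Psmd genes). Immune cells and cells exposed to interferon replace the catalytic subunits by the products of Psmb8, Psmb9 and Psmb10. The product of Psmb11 is used in the thymus, and that of Psma8 in the testis. Photoreceptors renew much of their protein continually, and proteasome activity is needed for their survival. BMAL1 with its partner CLOCK binds the E-box CACGTG.

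A peak is counted at a gene when its summit lies within 1 kb of either annotated end of the gene (an end summit). The lists differ greatly in length and depth. Control 1 holds 179475 peaks and Bmal1 CKO 2 holds 138254, and these are called the long lists. The other 4, the short lists, hold 372 to 1444. The number of fragments behind a peak can be recovered from the deposited fold and p-value. By this measure the genome-wide background was deepest in Bmal1 CKO 2, at 5.83 fragments per base. It was 3.46 in Control 1, 2.78 in Bmal1 CKO 1, and between 0.560 and 0.852 in the other libraries. Bmal1 itself, the deleted gene, which the table lists as Arntl, had no end summit in any of the 6 lists, and within 10 kb of it Control 1 listed 19 peaks, Bmal1 CKO 2 listed 15 and the short lists none. Peak lists cannot check whether the gene was lost, nor whether the tissue is retina.

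The DNA just upstream of 5 members is shown first, because they are Psma1, which had the highest fold in both long lists, Psmd12, which had the next highest in Bmal1 CKO 2, and the 3 members whose promoter window holds the E-box CACGTG (Psmd9, Psma4 and Psmb10). Each stretch is RefSeq sequence of build GRCm38.p6 (mm10), 5′ to 3′ on the gene's own strand, and ends at the base before the annotated gene. Capitals mark the searched motifs: CACGTG, the variant E-box CACGTT, the antioxidant response element TGACNNNGC, the ETS factor motif CCGGAAG and the NF-Y motif CCAAT, each searched on both strands. Psma1 lies at chr7:114276117-114276366 (minus strand), Psmd12 at chr11:107479278-107479527 (plus), Psmd9 at chr5:123227940-123228189 (plus), Psma4 at chr9:54950609-54950780 (plus) and Psmb10 at chr8:105938393-105938642 (minus).
Psma1: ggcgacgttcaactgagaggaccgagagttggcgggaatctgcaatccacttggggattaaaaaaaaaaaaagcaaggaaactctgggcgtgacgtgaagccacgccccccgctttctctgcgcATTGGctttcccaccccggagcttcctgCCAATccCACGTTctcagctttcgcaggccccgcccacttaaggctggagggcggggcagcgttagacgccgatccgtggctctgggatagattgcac
Psmd12: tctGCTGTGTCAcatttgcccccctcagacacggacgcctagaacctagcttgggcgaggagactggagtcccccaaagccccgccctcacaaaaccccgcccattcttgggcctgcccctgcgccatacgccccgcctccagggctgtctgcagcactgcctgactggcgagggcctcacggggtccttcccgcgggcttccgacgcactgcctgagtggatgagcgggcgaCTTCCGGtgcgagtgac
Psmd9: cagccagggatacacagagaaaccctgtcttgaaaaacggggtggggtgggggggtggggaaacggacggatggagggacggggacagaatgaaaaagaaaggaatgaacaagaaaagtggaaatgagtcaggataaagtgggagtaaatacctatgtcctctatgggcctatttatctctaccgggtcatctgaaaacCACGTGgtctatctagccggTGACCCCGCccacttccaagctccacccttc
Psma4: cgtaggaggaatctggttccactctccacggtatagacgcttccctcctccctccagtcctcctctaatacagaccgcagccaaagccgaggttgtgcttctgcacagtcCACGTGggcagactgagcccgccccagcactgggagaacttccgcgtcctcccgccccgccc
Psmb10: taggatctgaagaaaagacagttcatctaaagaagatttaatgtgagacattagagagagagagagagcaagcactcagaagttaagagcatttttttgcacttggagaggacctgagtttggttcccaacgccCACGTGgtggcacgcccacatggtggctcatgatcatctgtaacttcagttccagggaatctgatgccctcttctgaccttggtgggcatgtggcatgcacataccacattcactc

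Nearly every proteasome gene had an end summit in both long lists, a Control and a Bmal1 CKO library, and none had one in a short list. In Control 1, 38 of the 40 members (95%) had an end summit, where 69.5% of all protein-coding genes had one. In Bmal1 CKO 2, 39 of 40 (97.5%) had one, against 58.9% of all. The same 38 members had one in both lists, which is all 38 of the Control 1 members and 38 of the 39 of Bmal1 CKO 2. Over all protein-coding genes 54.7% had one in both lists, 14.8% in Control 1 alone, 4.22% in Bmal1 CKO 2 alone and 26.3% in neither. Among the members none was found in Control 1 alone, Psmb3 in Bmal1 CKO 2 alone and Psmb10 in neither. The members were chosen with these lists known, so the counts are a description and carry no test. In the gene or within 10 kb, all 40 members had a summit in both long lists, as had 92.6% and 87.8% of all protein-coding genes. Within 500 bp of an end, 34 members had a summit in Control 1 and 32 in Bmal1 CKO 2, against 58.2% and 49.4% of all. Counting any base of a peak within 1 kb in place of its summit, 38 and 40 members had one, against 71.9% and 60.7% of all.

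In the short lists 0 of 40 members had an end summit, where the share of all protein-coding genes was 0.0594% for each of Control 2 and Control 3, and 0.342% and 0.105% for Bmal1 CKO 1 and Bmal1 CKO 3. Averaged over libraries, the share of members was 31.7% ± 54.8 (SD, n = 3) for the wild type and 32.5% ± 56.3 (SD, n = 3) for the knockout. The difference of 0.833 percentage points is far below the spread within either genotype. Over all protein-coding genes the shares were 23.2% ± 40.1 and 19.8% ± 33.9 (SD, n = 3 each), a difference of −3.43 that is also far below the spread. The members' difference turned to −15.0 without Control 2 or Control 3 and to −31.7 without Bmal1 CKO 2. It was 17.1 without Bmal1 CKO 1 or Bmal1 CKO 3, 32.5 without Control 1, and 0 without the 2 long lists. The 38 member peaks of Control 1 were also scaled down to the background of each short list. The question was how many would reach the lowest −log10 p-value listed there. The scaling keeps each peak's ratio of stacked fragments to background, though enrichment may differ between libraries. It therefore cannot tell depth from enrichment. The number reaching that p-value was 0 for Control 2 and Bmal1 CKO 3, 1 for Control 3 and 34 for Bmal1 CKO 1. Of the 39 member peaks of Bmal1 CKO 2, 19 reached it in Bmal1 CKO 1 and 0 in the others. The like counts over the gene-end peaks of all genes are not given here. These counts are thus not shown to be particular to the members. Bmal1 CKO 1 lists no member. Across its whole list it had an end summit at 75 protein-coding genes (0.342%). That is so few that a count of 0 among 40 says nothing about the members. Why the short lists hold no member was not tested.

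**Figure D1:**
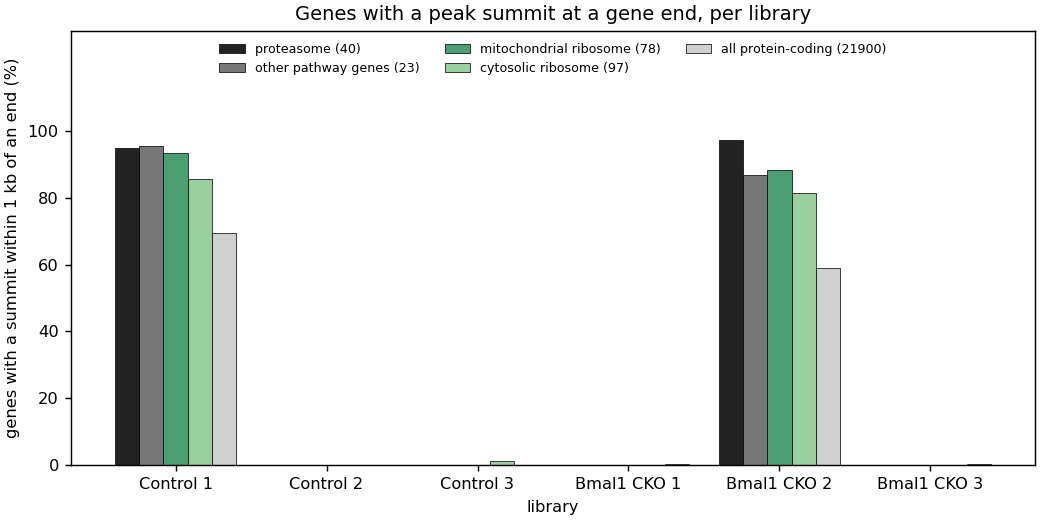
Bars give the percent of genes with a peak summit within 1 kb of an end (y axis) in each of the 6 libraries (x axis), for the 40 proteasome genes, 23 other pathway genes, 2 ribosomal families and all 21900 protein-coding genes. The proteasome bars stand at 95% in Control 1 and 97.5% in Bmal1 CKO 2 and at 0 in the 4 short lists.

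The summits lay at the start of the genes and close to it. A listed start site, and with it the strand, was at hand for 33 members. In all 31 of these with an end summit in Control 1, and in all 32 in Bmal1 CKO 2, the strongest end summit was at the start end. Over all protein-coding genes with a listed strand, 12.6% and 11.3% had theirs at the far end. Far-end summits of lower fold were found at Psmd2, Psmc2, Psma1 and Psma4 in Control 1, with a highest fold of 3.81, and at Psmb6, Psmc2 and Psma4 in Bmal1 CKO 2, with a highest fold of 2.30. The share of all genes with any far-end summit is not given here. The 12.6% and 11.3% count only the strongest summit of a gene. Counted at listed start sites alone, 31 of 33 members (93.9%) had a summit within 1 kb in Control 1 and 32 of 33 (97%) in Bmal1 CKO 2, against 69.2% and 59.7% of 17492 protein-coding genes.

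The distance from the strongest summit to the nearer gene end had a median of 134.5 bp in Control 1 (7 to 904 bp) and of 146 bp in Bmal1 CKO 2 (14 to 787 bp). Over all protein-coding genes with an end summit the medians were 247 and 236 bp. Within 200 bp of the end lay 24 of 38 members (63.2%) and 26 of 39 (66.7%), against 43.0% and 44.7% of all. Most summits were inside the gene, with 13 members outside it in either list. Relative to the start site the median position was 71 bp downstream in Control 1 and 56.5 bp downstream in Bmal1 CKO 2, close to the 81 and 53 bp of all protein-coding genes. Nearest inside the 1 kb limit in Control 1 were Psma3, at 904 bp, and Psma6, whose nearest summit was at 674 bp. Nearest outside were Psmb10, at 1302 bp, and Psmb3, at 3121 bp. In Bmal1 CKO 2 Psma3 (787 bp) and Psmc5 (755 bp) were nearest inside, and Psmb10, at 1138 bp, was the single member outside.

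**Figure D2:**
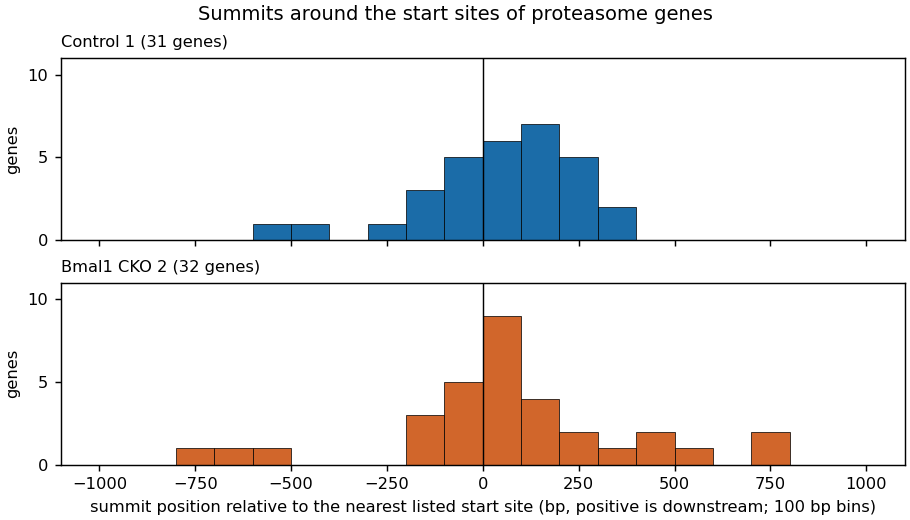
Histograms count proteasome genes (y axis) by the position of their strongest summit relative to the nearest listed start site (x axis, bp, positive is downstream, 100 bp bins), for 31 genes in Control 1 and 32 in Bmal1 CKO 2. Of them, 21 in each list lie within 200 bp of the start.

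Psma3 and Psma6, both alpha ring genes, show how the annotated end and the start site can differ. The record of Psma3 begins at 70969283 on chromosome 12, but its listed start is at 70974623. Control 1 had a summit at both places, with a fold of 5.91 at 70968379 and of 5.22 at 70974791, 168 bp downstream of the start. Bmal1 CKO 2 had folds of 3.76 at 70968496 and 3.01 at 70975030. Psma6 (chromosome 12, 55384222 to 55418459) has listed starts at 55384222 and 55398825. At the inner start Control 1 had a fold of 4.68 and Bmal1 CKO 2 of 3.33, at 14 bp upstream and 26 bp downstream of it. At the outer end the folds were 3.01 and 3.21.

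The members' peaks were of middling strength among gene-end peaks. The deposited fold is the enrichment at the summit over the background of the same library, so it is read here only within a list. In Control 1 the members' strongest end summits had a median fold of 4.36 (2.47 to 6.30), against 3.93 over all protein-coding genes with an end summit. In Bmal1 CKO 2 the median was 3.23 (2.03 to 5.41), against 3.10. Ranked among all genes' strongest end summits, the members' folds had a median percentile of 62.3 in Control 1 and 57.0 in Bmal1 CKO 2, and 24 of 38 and 23 of 39 were at or above the middle. Among the 372 strongest peaks of either long list, none had its summit at an end of a member. Such peaks lay at 0.196% and 0.187% of all protein-coding genes, so few that a count of 0 among 40 says nothing about the members.

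**Figure D3:**
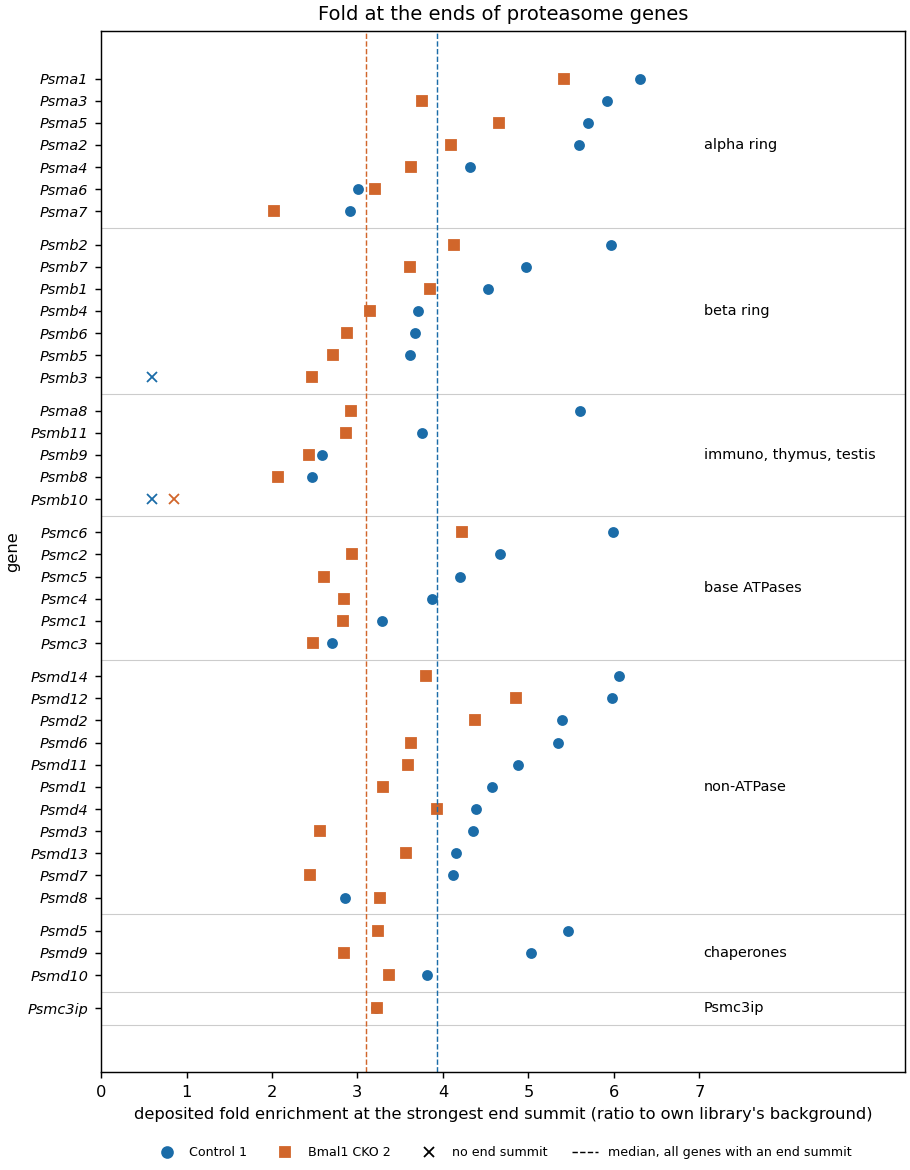
Each row is a proteasome gene, grouped by role, and the x axis gives the deposited fold at its strongest end summit in Control 1 (circles) and Bmal1 CKO 2 (squares); crosses near the left edge mark genes with no end summit and dashed lines the medians of all genes, 3.93 and 3.10. At Psmc3ip the symbols coincide; Psma1 has the highest fold in both lists, and Psmb10 has none.

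Among the alpha ring genes, all 7 constitutive members had an end summit in both long lists, with median folds of 5.60 and 3.76. Psma1 had the highest fold of all members, 6.30 in Control 1 and 5.41 in Bmal1 CKO 2. Its summits lay 93 bp and 14 bp inside the start of the gene (chromosome 7, 114264550 to 114276116), from 30 fragments stacked over a background of 3.92 and from 45 over 7.50. Both summits are thus just downstream of the stretch shown above, which holds CCAAT on either strand and CACGTT. Psma5, the next of the ring in Bmal1 CKO 2, had 5.70 at 14 bp inside its start in Control 1 and 4.66 at 532 bp inside in Bmal1 CKO 2. Psma2 had 5.60 and 4.09, outside the gene and towards Mrpl32, a mitochondrial ribosomal protein gene whose start lies 205 bp away on the other strand. Psma4 had 4.32 and 3.62. Psma7 had the lowest fold of the ring in each list, 2.91 and 2.03, and shares its start region with Ss18l1, which starts 19 bp away on the other strand.

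Of the 7 constitutive beta ring genes, 6 had an end summit in Control 1 and 7 in Bmal1 CKO 2, with median folds of 4.12 and 3.15. The catalytic subunit gene Psmb5 (chromosome 14, 54614120 to 54617995) had 3.62 at 331 bp inside its start in Control 1 and 2.71 at 85 bp outside in Bmal1 CKO 2. Psmb6 (chromosome 11, 70525324 to 70527858) had 3.67 and 2.88, at 86 bp and 46 bp inside. Psmb7 (chromosome 2, 38588046 to 38643952) had 4.97 and 3.61, the highest of the 3 in either list. The Psmb7 summits were 5 bp apart, at 38643898 and 38643903 on chromosome 2. Structural members ranged up to Psmb2, with 5.97 and 4.13 at summits 10 bp apart. Psmb1 had 4.53 and 3.85, and Psmb4 had 3.71 and 3.15. Psmb3 (chromosome 11, 97703434 to 97713500) was the exception. Bmal1 CKO 2 had a summit 35 bp outside its start with a fold of 2.47. There 42 fragments stood over a background of 16.4, the highest at any member. The same region lies at an end of Pcgf2. Control 1 had no summit nearer than 3121 bp. The Bmal1 CKO 2 peak was scaled to the background of Control 1, keeping its ratio of stacked fragments to background. It would have a −log10 p-value of 4.95, where the lowest in the Control 1 list is 2.76. With 1 library per genotype holding such peaks, this difference has no replicate check.

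All 6 genes of the ATPase ring had an end summit in both long lists, with median folds of 4.04 and 2.84. Psmc6 was highest, with 5.99 at 153 bp outside its start in Control 1 and 4.22 at 162 bp inside in Bmal1 CKO 2. Psmc2 had 4.67 and 2.93, Psmc5 had 4.20 and 2.61, Psmc4 had 3.88 and 2.84, Psmc1 had 3.29 and 2.84, and Psmc3 was lowest, with 2.71 and 2.47. At Psmc5 the strongest summits of the 2 lists were 805 bp apart, on either side of the start it shares with Ftsj3 (101 bp between the starts).

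All 11 non-ATPase subunit genes of the regulatory particle had one in both, with median folds of 4.57 and 3.59. Psmd14, which encodes the deubiquitinase that removes ubiquitin chains from substrates, had 6.06 and 3.80, with summits 115 bp and 117 bp inside its start, 2 bp apart. Psmd12, a lid subunit gene, had 5.98 and 4.85, from 40 fragments over a background of 5.86 and 48 over 9.10. Its Control 1 summit lay 11 bp outside the gene, at the edge of the CCGGAAG match in the stretch shown above (bases 11 to 17 before the gene, on the opposite strand), and its Bmal1 CKO 2 summit 82 bp inside. The scaffold gene Psmd2 had 5.39 and 4.37. Psmd4, which encodes a ubiquitin receptor, had 4.38 and 3.93. The lowest of the group were Psmd8 in Control 1, with 2.85, and Psmd7 in Bmal1 CKO 2, with 2.44.

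The symbol rule also takes 4 genes whose products are not subunits of the finished particle, and all 4 had an end summit in both long lists. Psmd5, Psmd9 and Psmd10 encode chaperones that help to assemble the ATPase ring. Their folds were 5.46, 5.03 and 3.81 in Control 1 and 3.23, 2.84 and 3.37 in Bmal1 CKO 2. Psmc3ip, a meiotic recombination factor gene named for binding an ATPase subunit, had 3.22 and 3.23. Without these 4, the counts were 34 of 36 (94.4%) in Control 1 and 35 of 36 (97.2%) in Bmal1 CKO 2.

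Of the 5 immuno-, thymus- or testis-type genes, 4 had an end summit in both long lists, against 33 and 34 of the 34 constitutive genes (chaperones included, Psmc3ip left out). Median folds of those called were 3.17 and 2.65 for the 5 genes, and 4.53 and 3.33 for the constitutive ones. Psmb8 (chromosome 17, 34198195 to 34201454), the counterpart of Psmb5, had the lowest fold of all members in Control 1, 2.47, and 2.07 in Bmal1 CKO 2, at percentiles 4.77 and 1.27. Psmb9 (chromosome 17, 34182030 to 34187330), the counterpart of Psmb6, had 2.58 and 2.43, at percentiles 7.15 and 12.4. It starts 226 bp from Tap1, an antigen transporter gene on the other strand. Neither gene had overlapping strongest peaks in the 2 lists, with summits 938 bp apart at Psmb8 and 1222 bp at Psmb9. Psmb11 (chromosome 14, 54625310 to 54629556) had 3.75 and 2.87, with summits 39 bp apart and 164 bp and 203 bp inside its start. Psma8 (chromosome 18, 14706135 to 14762301) had 5.60 and 2.93, at percentiles 87.0 and 40.8, and 77 bp and 178 bp inside the gene. It was also the only member with a short-list summit in the gene or within 10 kb, in Control 2, where 0.781% of all protein-coding genes had one. The fold was 8.02, 23365 bp inside the nearer end. No member had one in Control 3, Bmal1 CKO 1 or Bmal1 CKO 3, where 0.758%, 2.05% and 1.08% of all had.

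Psmb10 (chromosome 8, 105935728 to 105938392), the counterpart of Psmb7, was the only member with no end summit in any list. The nearest summits lay 1302 bp from an end in Control 1 and 1138 bp in Bmal1 CKO 2. It is also 1 of the 3 members whose promoter holds CACGTG, at bases 111 to 116 before the gene in the stretch shown above. With a limit of 2 kb all 5 genes of the group were counted in both lists, where 77.9% and 66.7% of all protein-coding genes were. With the −log10 q-value held to at least 5, 2 of the 5 remained in Control 1 (Psma8 and Psmb11) and 1 in Bmal1 CKO 2 (Psmb11). At that limit 32 and 25 of the 40 members were counted, against 52.7% and 33.2% of all protein-coding genes. A group of 5 genes allows no firm statement about how the types differ, and the difference was not tested.

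Psma7, Psmb8 and Psmb9, the 3 members of lowest fold in Bmal1 CKO 2, had stacked fragments near the members' median and a high background. A low fold at such a stacked number entails a high background, since both are solved from the fold and p-value. The same numbers over all genes are not given here. Over the members called, the stacked number had a median of 32 in Control 1 (16 to 43) and 36 in Bmal1 CKO 2 (19 to 49). Psmb8, Psmb9 and Psma7 had 31, 29 and 35 in Control 1 and 32, 35 and 34 in Bmal1 CKO 2, which is near those medians. Their local background was 12, 10.6 and 11.4 in Control 1, where the members' median was 6.41, and 14.9, 13.8 and 16.3 in Bmal1 CKO 2, where it was 10.3. Psma8 was the reverse case, with 24 and 19 stacked fragments over 3.46 and 5.83, the genome-wide levels of the 2 libraries. Psmd10, on the X chromosome, lay at the same levels, with 16 and 22.

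**Figure D4:**
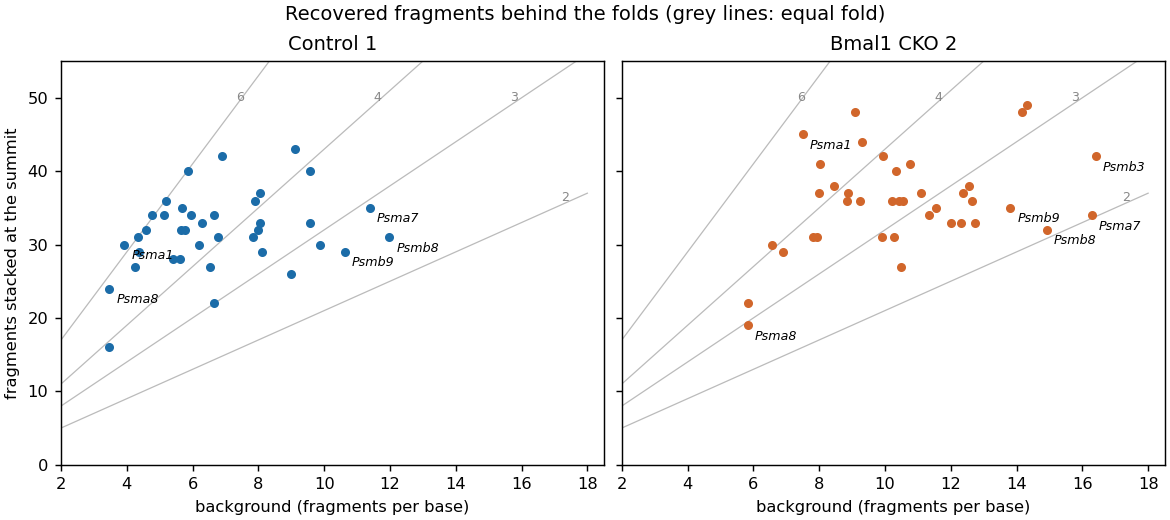
Fragments stacked at each member's strongest end summit (y axis) against the local background in fragments per base (x axis), both recovered from the deposited fold and p-value, in Control 1 (38 genes) and Bmal1 CKO 2 (39 genes); grey lines join points of equal fold. Psma7, Psmb8 and Psmb9 lie at the right, with stacked numbers of 29 to 35.

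Most member peaks of the 2 long lists overlapped. For the 38 members in both, the strongest summits were a median of 153 bp apart (2 to 1222 bp), 15 pairs were within 100 bp, and 33 pairs of peaks overlapped. The 5 that did not were Psma6, Psma7, Psmb8, Psmb9 and Psmc5. Allowing any end peak of a gene, 36 members had peaks sharing at least 1 base. The same counts over all protein-coding genes are not given here. The overlaps, and the lack of them, are thus not shown to be particular to the members. Members with a high fold in Control 1 tended to have a high fold in Bmal1 CKO 2, with a Spearman rho of 0.756 and a Pearson r of log2 folds of 0.746 across 38 genes. Over 11974 protein-coding genes in both lists rho was 0.765 and r 0.769. Genes are not independent replicates, and both values describe 2 libraries of different genotype, whose peaks lie on the same sequence.

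**Figure D5:**
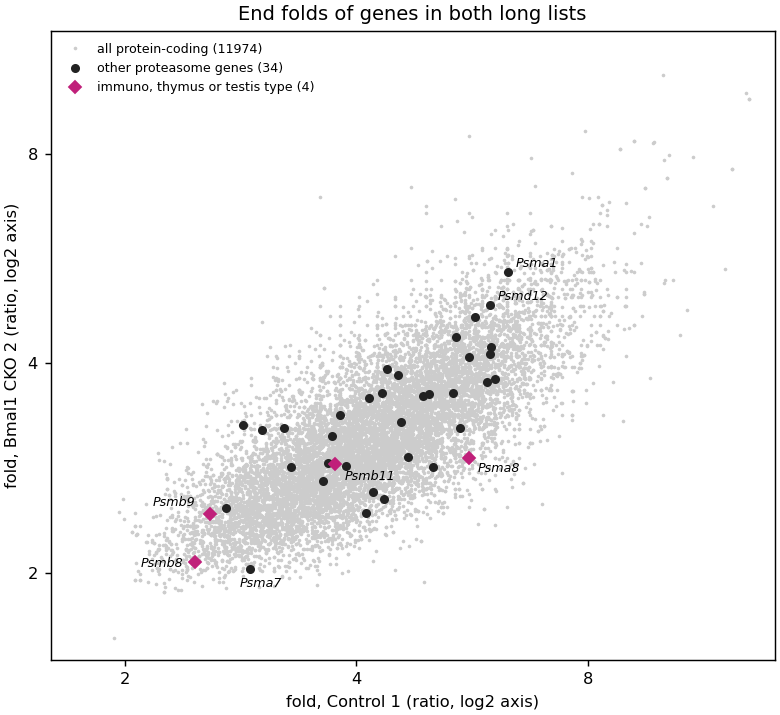
Deposited fold at the strongest end summit in Control 1 (x axis) against Bmal1 CKO 2 (y axis), both on log2 axes, for 11974 protein-coding genes (grey), 34 proteasome genes (black) and 4 of immuno, thymus or testis type (diamonds). Proteasome genes run through the grey cloud from Psmb8 and Psma7 at the low end to Psma1 at the high end.

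Neighbouring genes shared some of these peaks. For 9 of 38 members in Control 1 and 11 of 39 in Bmal1 CKO 2 the strongest summit was also within 1 kb of an end of another protein-coding gene (23.7% and 28.2%), against 19.2% and 20.4% of all protein-coding genes with an end summit. Starts on opposite strands within 1 kb, pointing away from each other, were found at Psma2, Psma7, Psmb9, Psmc5, Psmd10 (with Atg4a, 196 bp) and Psmd13 (with Sirt3, 85 bp). The strand was at hand for 33 members only, and the share of such starts over all genes is not given here. An end summit that no other protein-coding gene shares was found at 32 of 40 members in Control 1 and 30 of 40 in Bmal1 CKO 2, against 58.2% and 48.2% of all. Which gene of such a pair a peak belongs to cannot be told from the lists.

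The promoters of the members were rich in CpG, the dinucleotide that marks promoters of genes used in most cells. RefSeq promoter windows, from 250 bases before to 50 after a start, were at hand for 33 members (35 windows). Their median ratio of observed to expected CpG was 0.793, against 0.567 over 21263 windows of protein-coding genes, at nearly equal GC content (56.7% and 56.3%). Of the 23 members with a ratio of at least 0.6, 22 had an end summit in Control 1 and 23 in Bmal1 CKO 2, where 90.2% and 80.9% of all genes with such a ratio had one. Of the 10 members below 0.6, 9 had one in each list, against 50.5% and 39.8% of all such genes. Most of these 10 lay near the limit: 7 had a ratio from 0.4 to 0.6, and all 7 had an end summit in both lists, against 79.2% and 65.7% of all genes in that range. The other 3 were below 0.2, and 2 of them had one in each list, against 33.6% and 26.6% of all. Psma6 is 1 of these 3, with a ratio of 0.185 at its first listed start. At its inner start, 55398825, the ratio was 0.697. The immuno- and thymus-type genes had ratios of 0.523 (Psmb8), just under 0.6 (Psmb9), 0.192 (Psmb10) and 0.165 (Psmb11). The part of CpG content in the counts was not tested.

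The E-box was about as frequent in these promoters as in all. CACGTG was found in 3 of 35 windows (8.57%, 95% Wilson interval 2.96 to 22.4%), against 7.84% of all. In the 150 bases next to the start all 3 matches remained, against 4.72% of all, a share inside that interval. CACGTT was found in 1 (2.86%), against 4.68%. Psmd9, which holds CACGTG at 46 to 51 bases before the gene, had folds of 5.03 and 2.84. Psma4, with it at 57 to 62 bases before the gene, had 4.32 and 3.62, and Psmb10 had no end summit. The antioxidant response element TGACNNNGC, read by the proteasome gene activator NFE2L1, was found in 5 windows (14.3%, against 13.0%), at Psmb5, Psmb6, Psmc6, Psmd12 and Psmd9. CCAAT was found in 14 (40%, against 38.2%), and the motif of NRF1, a factor of nuclear genes for mitochondria, in 1, at Psma2 (2.86%, against 1.33%). CCGGAAG, read by ETS factors, was found in 12 windows (34.3%, Wilson interval 20.8 to 50.8%, against 11.6%). They belong to 11 genes: Psma6, Psmc1, Psmc2, Psmc6, Psmc3ip, Psmd2, Psmd4, Psmd6, Psmd11, Psmd12 and Psmd13. CCGGAAG itself holds a CpG, and the members' windows had a median CpG ratio of 0.793, against 0.567 over all. Windows of like CpG ratio were not compared, so the part of CpG content in this share was not tested. A match says only that these letters stand in the window, and a window without one says nothing about a factor.

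The other genes of the pathway gave a like picture. Of 23 genes for activators, chaperones, shuttle factors and control of the proteasome, 22 had an end summit in Control 1 and 20 in Bmal1 CKO 2. These are 95.7% and 87.0%, against 69.5% and 58.9% of all protein-coding genes. Their median folds were 4.30 and 3.41, against 3.93 and 3.10 over all protein-coding genes with an end summit. Sem1, a small subunit gene of the regulatory particle, had the highest fold in Control 1, 7.17, and had 4.98 in Bmal1 CKO 2. The deubiquitinase gene Usp14 had 6.77 and 4.03, and the ubiquitin ligase gene Ube3c had 6.68 and 3.74. An end summit in both lists was found at 54.7% of all protein-coding genes. All 5 assembly chaperone genes of this list (Psmg1 to Psmg4 and Pomp) and all 5 shuttle factor genes had one in both. So had Nfe2l1 (3.19 and 2.91), Ddi2, whose product cleaves NFE2L1 (3.33 and 2.78), and Ngly1, whose product removes its sugars (5.96 and 4.10). The inhibitor gene Psmf1 had none in either list by the ends of its record, with the nearest summit at 1430 and 1420 bp. Its listed start lies inside the record, as at Psma3, and had a summit 28 bp downstream with a fold of 5.49 in Control 1 and 49 bp downstream with 3.89 in Bmal1 CKO 2. The activator gene Psme2 and the ubiquitin receptor gene Adrm1 had none in Bmal1 CKO 2 alone, with the nearest summit at 1102 and 12828 bp, and had folds of 2.64 and 2.75 in Control 1.

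Ribosomal protein genes, other large families whose products nearly every cell builds, were counted the same way. Of all protein-coding genes, 69.5% in Control 1 and 58.9% in Bmal1 CKO 2 had an end summit. End summits were found at 73 of 78 mitochondrial ribosomal protein genes (93.6%) in Control 1 and 69 (88.5%) in Bmal1 CKO 2. Among cytosolic ones they were found at 83 of 97 (85.6%) and 79 (81.4%). In both lists at once they were found at 38 of 40 proteasome genes (95%), 68 of 78 mitochondrial (87.2%) and 76 of 97 cytosolic ones (78.4%). Median folds were 4.41 and 3.21 for the mitochondrial and 3.97 and 3.07 for the cytosolic family. These differences between families were not tested, so a high share is not shown to be particular to the proteasome.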

How the data were processed

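The deposited data are 1 MACS2 peak list per library. Per the submitters' processing notes, reads went through Trim Galore, Bowtie2 and MACS2 on build mm10. Not given in the sources used here: their settings and versions, and whether an input served as control. The authors' value of a summit is its fold over the background of that library (a ratio). Beside it stand −log10 of the p-value, −log10 of the q-value and a score, all as deposited. The score is 10 times the −log10 q-value rounded down in 100% of peaks. The authors called peaks per library. Each list's library is the one GEO attaches it to.

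Gene ends, symbols and promoters came from RefSeq tables of GRCm38.p6, which shares the coordinates of mm10. A gene's strongest end summit is that with the highest fold. Stacked fragments and background were solved from fold and p-value, with a pseudocount of 1 and a Poisson tail, for every short list and 3000 random peaks of each long list; all fell within 0.02 of the deposited −log10 p-value. The calls and the solver were tested on simulated data. Python 3.11.15, pandas 2.3.3, scipy 1.17.1 and statsmodels 0.14.6 were used.

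The members and lists were chosen with earlier results of these data known. The CpG split (by a gene's first listed promoter) and the fragment calculation were added after the data were seen. No test was run: shares over chosen genes carry no p-value, and 3 libraries against 3 could not reach below 0.10 in an exact two-sided permutation test. Nothing says that the libraries came from separate mice beyond their labels. All members may be named; full values go to catalytic, immuno- and tissue-type genes, the 3 highest folds per long list, members in only 1 or neither long list, and those nearest the limit. Alternatives were other windows, a stricter q-value, peak bases in place of summits, equal list lengths, start sites only, unshared summits, a narrower gene rule, the nearest summit, other overlaps, a shorter promoter and leaving out libraries.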

Additional observations from a re-analysis of the deposited data

How the results depend on the processing

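A share was taken as moved when it left the 95% Wilson interval of its reported value, and the difference between genotypes when it moved by more than 1 SD. With only peaks whose −log10 q-value reached 5, the share of members with an end summit was 80% in Control 1 and 62.5% in Bmal1 CKO 2. All protein-coding genes had 52.7% and 33.2%. In Bmal1 CKO 2 the share was 67.6% of constitutive genes, 20% of immuno- and tissue-type genes and 65.2% of other pathway genes. With 372 peaks per library the members' share was 0 in both long lists, where all protein-coding genes had 0.196% and 0.187%. With unshared summits the members' share was 80% and 75.0%, against 58.2% and 48.2% of all protein-coding genes. Within 500 bp, Bmal1 CKO 2 had 80% of members and 85.3% of constitutive genes, against 49.4% of all. Within 2 kb it had 100% of members, and the immuno- and tissue-type genes reached 100% in both long lists. Other pathway genes reached 100% in Control 1 and 95.7% in Bmal1 CKO 2. The shares of all protein-coding genes within 2 kb were 77.9% and 66.7%. With any base of a peak, members and immuno- and tissue-type genes reached 100% in Bmal1 CKO 2, against 60.7% of all. Members with summits of both lists within 100 bp numbered 17. The difference between genotypes (0.833 percentage points) ran from −31.7 to 32.5 when libraries were left out, with −15.0 without Control 2 or Control 3, and turned to −5.83 at the stricter q-value and −1.67 within 500 bp. In these cases the cause was not tested, except where fewer peaks, a narrower window or fewer libraries enter by construction. Median folds and distances moved by less than the spread over members, and motif shares stayed within their intervals. At the recovered depth of Control 2, Control 3 and Bmal1 CKO 3, at most 1 member peak of a long list would reach the lowest p-value listed. For Bmal1 CKO 1, 34 of the Control 1 peaks and 19 of the Bmal1 CKO 2 peaks would. This scaling keeps the long list's ratio of stacked fragments to background, and the like count over all genes is not given here. The part of depth in the short-list counts of 0 was not tested. No paired analysis was possible because the results come from no test.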
